A study of Drosophila melanogaster with 2 samples.

Results

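Weak but repeated signals of tagged Pho at gene starts are described here, at 3079 of the 30000 entries in the relaxed peak list of the pooled replicates. Each was absent from the authors' optimal list of 4293 entries, the peaks that passed their cut-off for irreproducible discovery. Each also had a summit within 100 bp in the relaxed list of both replicates and sat at most 500 bp from an annotated transcript start. The optimal list holds the 4293 entries with the highest pooled signal values, so "weak" means a pooled rank beyond 4293. The members were chosen by signal rank, replicate match and distance to a start. Values of these 3 measures are therefore given as a description, without a test, also where weak and optimal entries are set side by side.

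The embryos came from 1 transgenic Drosophila melanogaster line that stably expresses Pho with a C-terminal GFP, and every sample carried this insertion. Whole embryos of both sexes, 0 to 24 h old, were used as 1 group of 2 biological replicates, numbered 3 and 4, and chromatin sheared to 200 to 800 bp was precipitated with an antibody against GFP. Peaks of both replicates and of the pooled reads were called against the same control file, and read depth is unknown because the files hold no read counts. Without untagged embryos, binding by Pho cannot be told apart from precipitation of open promoters, and in whole embryos binding in few cells cannot be told apart from weak binding in many.

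Pho (Pleiohomeotic) is a zinc finger protein of the Polycomb group, the repressors known for keeping Hox genes silent. It recognises specific DNA words and, with its partner Sfmbt, brings other Polycomb complexes to Polycomb response elements. Promoters of genes that most fly cells use often carry the motif of the replication-related factor DREF, which the insulator protein BEAF-32 also recognises in part, or core promoter motif 1, which the zinc finger protein M1BP binds. The search used TATCGATA for DREF, CGATA for BEAF-32, GGTCACACT for motif 1, and GCCAT and the longer AGATGGC for Pho.

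The windows below show what such entries look like in sequence. Each is the base of the pooled summit with 50 bases to each side, on the plus strand of dm6 (RefSeq sequence of genome release 6), and free of annotated UTR. Capitals mark the motif on either strand. The first 5 hold TATCGATA, the DREF motif. Map205 (a microtubule-associated protein), CG7920 and SelG have the 3 strongest such entries that qualified; a start near the CG7920 entry also had an optimal summit nearby, and that entry added no gene. Cdk2 (a cell cycle kinase) and Prp39 (a splicing factor) were added after their values were seen, as examples of a cell cycle and a splicing gene.
Map205 chr3R:32068456-32068556: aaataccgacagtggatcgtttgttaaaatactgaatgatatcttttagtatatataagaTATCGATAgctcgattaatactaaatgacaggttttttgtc
CG7920 chr3R:30015354-30015454: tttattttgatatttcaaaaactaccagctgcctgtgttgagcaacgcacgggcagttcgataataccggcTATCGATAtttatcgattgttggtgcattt
SelG chrX:11887180-11887280: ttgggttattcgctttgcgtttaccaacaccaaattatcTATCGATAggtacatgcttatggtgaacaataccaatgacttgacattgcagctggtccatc
Cdk2 chr3R:20735513-20735613: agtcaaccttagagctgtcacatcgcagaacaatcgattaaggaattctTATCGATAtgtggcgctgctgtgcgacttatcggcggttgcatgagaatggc
Prp39 chr3R:28811982-28812082: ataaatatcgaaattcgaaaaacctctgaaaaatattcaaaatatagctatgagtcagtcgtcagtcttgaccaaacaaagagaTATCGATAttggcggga
The next 2 hold GGTCACACT, motif 1, at Cdk12 (a kinase that acts on RNA polymerase II) and at PIG-Wa, a gene of the synthesis of lipid anchors.
Cdk12 chr3L:21517058-21517158: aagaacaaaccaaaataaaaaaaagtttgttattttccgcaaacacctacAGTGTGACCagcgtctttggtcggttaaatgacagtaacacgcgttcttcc
PIG-Wa chr2L:2383084-2383184: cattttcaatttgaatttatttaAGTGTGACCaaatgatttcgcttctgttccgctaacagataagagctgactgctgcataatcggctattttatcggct
The last 4 hold AGATGGC, the longer form of the Pho core. CG5273, cad (a homeobox gene of posterior patterning) and eIF2beta (a subunit of translation initiation factor 2) have the strongest such entries that qualified, and the Hox gene abd-A was added after its values were seen.
CG5273 chrX:759276-759376: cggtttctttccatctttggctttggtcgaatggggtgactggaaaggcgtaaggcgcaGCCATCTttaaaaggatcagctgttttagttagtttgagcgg
cad chr2L:20770488-20770588: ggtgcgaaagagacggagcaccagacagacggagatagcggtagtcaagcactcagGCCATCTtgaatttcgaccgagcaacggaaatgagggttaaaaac
eIF2beta chr3L:12526946-12527046: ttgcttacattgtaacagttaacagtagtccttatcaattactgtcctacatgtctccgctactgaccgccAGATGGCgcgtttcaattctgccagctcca
abd-A chr3R:16830146-16830246: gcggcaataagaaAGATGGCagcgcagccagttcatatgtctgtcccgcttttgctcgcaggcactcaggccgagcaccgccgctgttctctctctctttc
The motif centre lay 2 bp from the summit at Cdk2, 4 bp at Cdk12 and 9 bp at cad, and up to 38 bp away, at Prp39.

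These windows come from the stronger members, with pooled ranks from 4304 to 6881, and differ in replicate support. At SelG the authors' signal value was 52.5 in replicate 3 against 37.5 in replicate 4, and the entry ranked 4874 and 4407. The entry at Map205 had 68.7 and 19.4, with ranks of 3243 and 14438. At Cdk12 the values were 42.3 and 51.2, with ranks of 6601 and 2683. The SelG entry stood at similar ranks in both replicates, that at Map205 was much stronger in replicate 3, and that at Cdk12 was stronger in replicate 4. The cad entry had 56.7 and 24.7 (ranks 4355 and 9107) and the eIF2beta entry 60.6 and 17.8 (ranks 3917 and 17114). The abd-A entry had 35.0 and 30.7 (ranks 8648 and 6175), so it was placed higher in replicate 4. Signal values are the authors' and differ in scale between lists, so only the ranks are comparable between replicates.

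The share of promoter entries with a summit in both replicates fell steadily with pooled rank. The pooled list comes from the reads of both replicates, and each list stops at 30000 entries. Pooled rank and replicate match are therefore linked. In bins of 2000 ranks it was 97.3% for ranks 1 to 2000 and 86.4% for ranks 4001 to 6000, where the members begin. It was 62.2% for ranks 8001 to 10000, 24.0% for ranks 16001 to 18000 and 1.43% for the last 2000. The share of all entries that lay at promoters fell in the same direction, from 66.8% in the first bin to 21.1% in the last. Across all entries absent from the optimal list, 8597 of 25707 (33.4%) had a summit in both replicates, and at promoters 3079 of 7578 (40.6%) did. Away from promoters 5518 of 18129 (30.4%) did. Of the 8597 repeated weak entries, 35.8% lay at promoters (95% Wilson interval 34.8 to 36.8, counting error only). That share was 62.0% of the optimal list and 26.3% of the weak entries without a summit in both replicates. Of the 4499 weak promoter entries left out, 2430 had a summit in replicate 3 alone, 1394 in replicate 4 alone and 675 in neither.

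**Figure D1:**
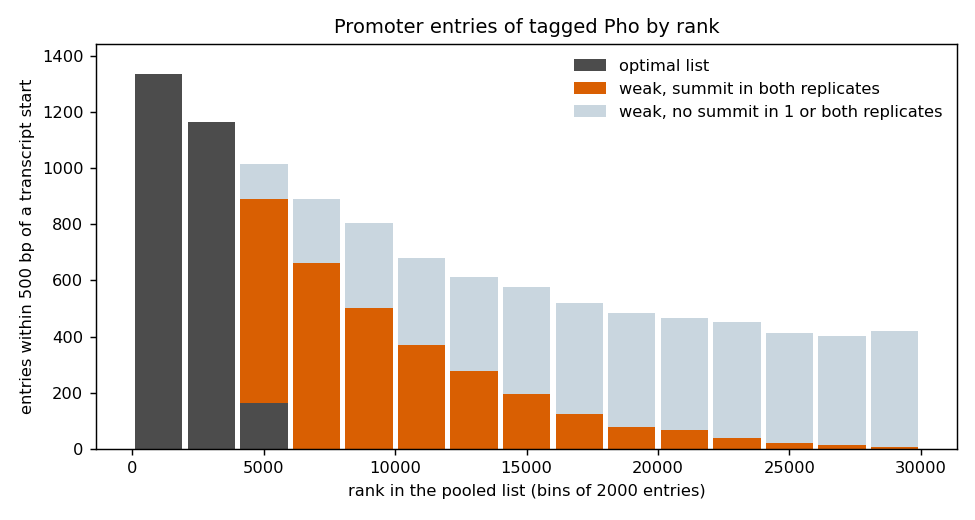
Entries within 500 bp of a transcript start (y axis, number) against pooled rank in bins of 2000 (x axis); dark grey is the optimal list, orange the weak entries with a summit in both replicates, light grey the weak entries without. The orange part shrinks from 728 entries for ranks 4001 to 6000 to 6 for the last 2000 ranks, while the number of promoter entries falls less.

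The members ranged in pooled rank from 4294 to 29641, with a median of 8604 and quartiles of 6100 and 12316. Their pooled signal values ran from 91.8 down to 25 with a median of 56.3, against a median of 152 for the 2663 optimal entries at promoters. The last optimal entry had a signal value of 91.9 and the first member 91.8, so the values meet at the border. The −log10 q-value deposited with the members ran from 0.0496 to 3.15 with a median of 1.27. Near the other borders, 67 members matched replicate 3 at 91 to 100 bp and 48 more would have within the next 10 bp. For replicate 4 these counts were 73 and 77. In distance to a start, 145 members lay at 451 to 500 bp and 128 further entries at 501 to 550 bp.

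Support in the single replicates was uneven. The median rank was 10234 in replicate 3 (1297 to 29987) and 10612 in replicate 4 (1050 to 29997), and each member matched a replicate summit of its own. The median distance to that summit was 9 bp in replicate 3 and 16 bp in replicate 4. The higher of the replicate ranks was a median of 1.61 times the lower, and over 2 times in 1011 members (32.8%). In 884 members (28.7%) the rank was beyond 20000 in 1 or both replicates, and in 1584 (51.4%) it was within 15000 in both. Over the 3079 members Spearman's rho between the replicates' signal values was 0.278, and Pearson's r of their log2 values was 0.264. Over the 2516 optimal promoter entries matched in both replicates these were 0.769 and 0.836. The members cover pooled signal values from 25 to 91.8, and the optimal promoter entries from 91.9 to 2315.

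Only 4 members ranked within 4293 in both replicates, 144 did in replicate 3 alone, 256 in replicate 4 alone, and 2675 (86.9%) in neither. Of these 4, which were picked out after their values were seen, the entry at sds22, a regulatory subunit of protein phosphatase 1, ranked 1640 and 2641 in the replicates with signal values of 104 and 51.8. In the pooled list it ranked 8360 with 57.3, and an optimal summit lay 239 bp away. The entry at CG31937 ranked 3683 and 4070, against 8509 in the pooled list, with an optimal summit 199 bp away. The entry at atos ranked 3906 and 3532 and 4563 in the pooled list, and the fourth lay at the antisense RNA gene asRNA:CR43469. So 2 of the 4 stood directly beside an optimal peak.

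**Figure D2:**
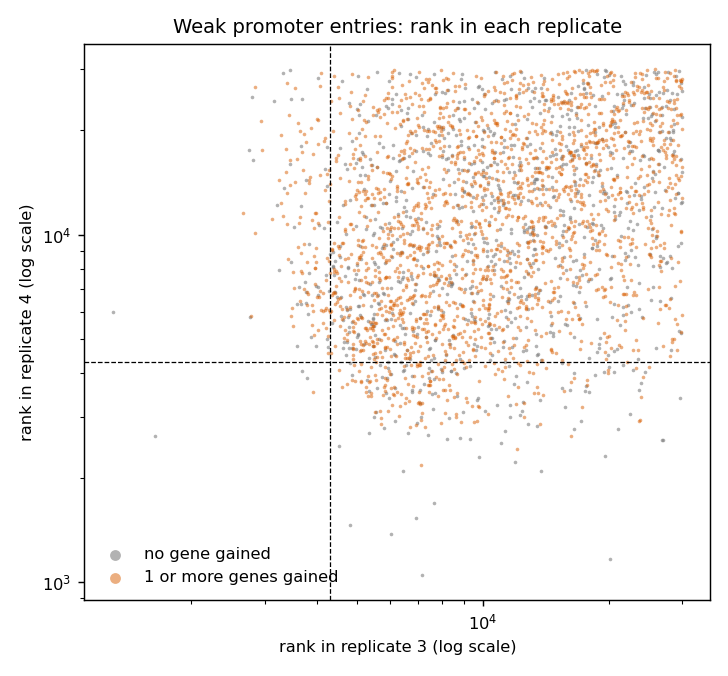
Rank in replicate 3 (x axis) against rank in replicate 4 (y axis), both on log scales, for the 3079 members; orange points gain 1 or more genes, grey points gain none, and dashed lines mark rank 4293. The lower left field holds 4 points, and most points (2675) lie beyond both lines.

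Summits of the members spread to both sides of the start, while those of optimal promoter entries lay mainly upstream. The median distance to a start was 120 bp, against 95 bp for optimal promoter entries, and 2036 members (66.1%) lay within 200 bp. The summit lay upstream of the nearest start in 1718 of 3079 members (55.8%, Wilson 54.0 to 57.5) and in 2136 of 2663 optimal promoter entries (80.2%, 78.7 to 81.7). No test is given, because both sets were chosen by distance to a start and split by signal rank. Within the members the share fell from 66.8% in the strongest of 4 rank groups of equal size to 58.2%, 51.7% and 46.6% in the others. The median distance rose in the same order, from 85 to 98, 136 and 179 bp. The bin from 50 to 0 bp upstream held the most members (14.1%), and that from 100 to 50 bp upstream held the most optimal entries (20.8%).

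**Figure D3:**
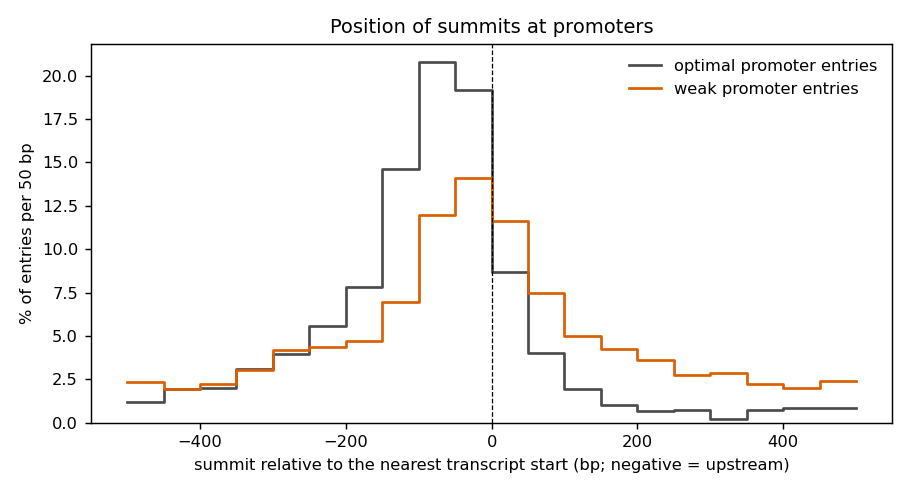
Share of entries per 50 bp (y axis, %) by the position of the summit relative to the nearest transcript start (x axis, bp, negative upstream) for members (orange) and optimal promoter entries (dark grey). The grey line peaks upstream at 20.8%, and downstream of 50 bp the orange line stays above it.

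Of 11 motifs, 5 (45.5%) were more frequent within 50 bp of the members' summits than in a window of the same width 200 to 300 bp to 1 side, and 1 (9.09%) was less frequent (exact McNemar test, Benjamini-Hochberg adjusted over the 11). TATCGATA (DREF) was present at 111 of 3079 summits (3.61%, Wilson 3.00 to 4.32) against 26 flanks (ratio 4.27, exact McNemar test, adjusted p = 3.55e-13). GGTCACACT (motif 1) occurred at 56 summits against 16 flanks (ratio 3.50, exact McNemar, adjusted p = 8.79e-06). CGATA (BEAF-32), which lies inside TATCGATA, was present at 682 and 445 (1.53, exact adjusted p = 3.58e-14). In windows around all 23581 transcript starts TATCGATA stood at 3.76%, GGTCACACT at 3.04% and CGATA at 21.4%, against 3.61%, 1.82% and 22.2% of the members. The members were chosen for lying near starts, so these ratios do not set them apart from other promoters. GTGTG, a motif of the zinc finger protein Combgap whose complement lies inside GGTCACACT, was present at 719 and 633 (1.14, exact adjusted p = 0.0161). The E-box CAGCTG, core promoter motif 5, was present at 201 and 152 (1.32, exact adjusted p = 0.0161). The call for CAGCTG was lost with a window of 25 bp (exact adjusted p = 0.328) and with the flank at 300 to 400 bp (0.0611). The TATA box TATAAA occurred at 340 summits against 407 flanks (0.835, exact adjusted p = 0.0177), a call also lost with the flank at 300 to 400 bp (0.0647).

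The words of the Pho site were not more frequent at the members' summits by this test. The core GCCAT, which lies inside the reverse complement of AGATGGC, occurred at 549 summits (17.8%) against 517 flanks (ratio 1.06, exact McNemar, adjusted p = 0.410). The longer AGATGGC occurred at 56 summits (1.82%, Wilson 1.40 to 2.35) against 43 flanks (1.30, exact adjusted p = 0.358). At optimal promoter entries AGATGGC occurred at 56 summits of 2663 against 18 flanks. Its share of summits did not pass the test between weak and optimal entries (1.82% and 2.10%, Fisher's exact test, adjusted p = 0.545), and it was 1.26% in windows around all 23581 transcript starts. With the match asked in a single replicate, AGATGGC passed against its flank (ratio 1.64, exact adjusted p = 0.00935, without replicate 3 and 1.65, adjusted p = 0.00598, without replicate 4). Those larger sets hold 4473 and 5509 entries.

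Between weak and optimal promoter entries, 2 of 11 motifs (18.2%) were more frequent in the weak entries and 3 (27.3%) less frequent (Fisher's exact test, two-sided, adjusted over the 11). GTGTG was present at 719 of the members (23.4%) and 505 of the 2663 optimal promoter entries (exact adjusted p = 0.000147), and GAGAG, bound by the GAGA factor, at 14.5% and 10.6% (adjusted p = 3.52e-05). CGATA was present at 22.2% and 27.6% (exact adjusted p = 1.07e-05), TATAAA at 11.0% and 15.6% (adjusted p = 4.62e-06), and TATCGATA at 3.61% and 5.22% (adjusted p = 0.00759). The last call was lost with a window of 25 bp (exact adjusted p = 0.779) and among starts within 200 bp (0.234), and that for GAGAG with a window of 25 bp (0.0554). Base composition moved with these shares. The median GC content of the window was 43.6% for the members, as around all transcript starts, and 38.6% for optimal promoter entries. Summit position differed as well, with 55.8% of the members and 80.2% of optimal promoter entries upstream of the nearest start. The part of composition and of position in the differences was not tested. The test for motif 1 did not pass (1.82% and 2.29%, exact adjusted p = 0.336). With the match asked in replicate 4 alone, motif 1 passed as less frequent in the weak entries (a difference of -0.793 percentage points, exact adjusted p = 0.0258) and GCCAT as more frequent (2.30 points, exact adjusted p = 0.0246). Zelda's CAGGTAG and the E-box CACGTG passed neither test.

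**Figure D4:**
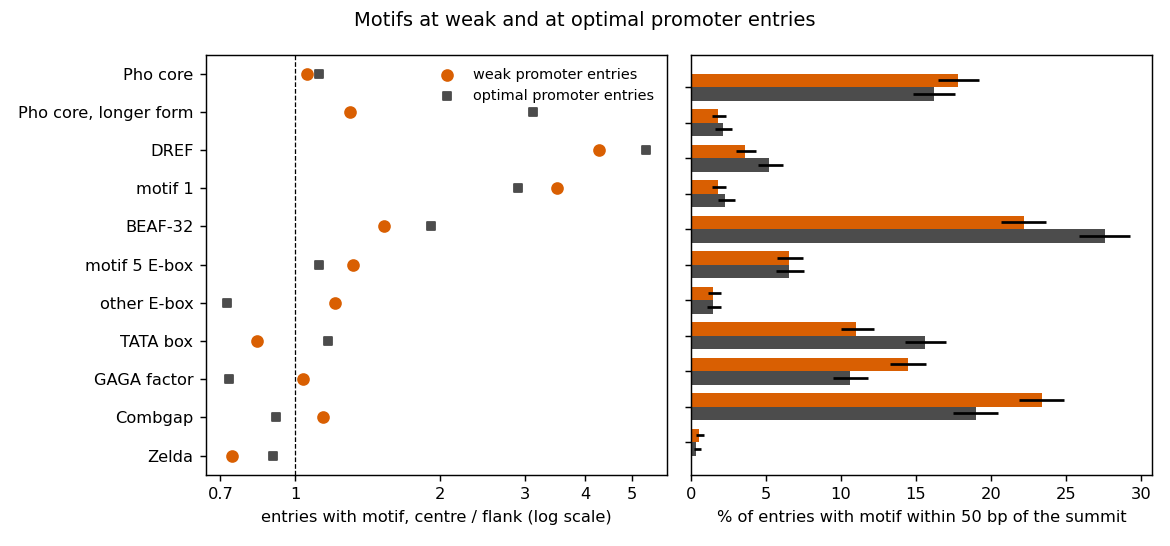
Left, number of entries with each of 11 motifs at the summit divided by the number in the flank (x axis, log scale; 1 marks no difference) for members (orange circles) and optimal promoter entries (grey squares); right, percent of entries with the motif within 50 bp of the summit, with 95% Wilson intervals as error bars. The DREF motif has the highest ratio in both sets, 4.27 and 5.35, and the longer Pho form stands at 1.30 and 3.11.

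Entries with the DREF motif lay mostly just upstream of a start. Their median distance to a start was 41 bp, 92 of the 111 (82.9%) lay upstream of the nearest start, and 102 (91.9%) gained a gene, meaning one with no optimal summit near its starts. Over all members these were 120 bp, 55.8% and 67.3%. Their median rank was 6256, against 8604. Along the 4 rank groups of the members, TATCGATA was present in 6.23%, 4.29%, 2.34% and 1.56%. Entries with motif 1 had a median distance of 30 bp, and 46 of 56 gained a gene. Entries with AGATGGC lay at a median of 144 bp, with 57.1% upstream and 42 of 56 gaining a gene. These values are a description, without a test.

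A gene counted as gained when a member lay within 500 bp of 1 of its starts and no optimal summit lay within 1000 bp of any of them. Optimal summits reached 3642 of 13945 protein-coding genes (26.1%), and the members gained 2247 more (16.1%, or 21.8% of the 10303 not reached), for 5889 (42.2%) together. The gain came from 2073 members (67.3%). A further 760 (24.7%) lay at coding starts that were all reached already, at a median of 817 bp from an optimal summit, and 246 (7.99%) lay at noncoding starts alone. Of all members, 280 (9.09%) overlapped an optimal entry, and 967 (31.4%) had no optimal summit within 10000 bp.

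Members that gained a gene had a median pooled rank of 8536. This was close to 8604 for all members and 8445 for members at coding starts already reached. The strongest entry of a gained gene had a median pooled rank of 7807 (4294 to 28671). It was within rank 5000 for 285 genes and within 10000 for 1516 (67.5%), and 73 genes were gained only beyond rank 20000. Of the gained genes 410 (against 1837) had another gene's start nearer to each of their entries. Among genes named below, these were kermit, wda, smo, CG7322, Mov10, CG31800, Atg3, Prosbeta5, LSm1, gbb, RpS28a, eIF2gamma, eIF4E6 and eIF2Bepsilon. They were also mRpL17, mRpS14, mRpL28, HisRS, Rab2, Rab23, VhaM9.7-a, Tim9a, Cdc45, Nup214, Gr97a and Lcp9. The strongest entry of MED25 lay nearer to Hs6st. Of the members, 408 gained 2 or more genes at once, whatever the strand of the starts. Gained genes had a median length of 3099 bp, close to that of genes with an optimal summit (3264 bp), and genes with neither had 1695 bp. Only 33.5% of them were known by a CG number alone, against 30.2% and 52.7%. A gene with more starts has more chances to be reached, and the gained share was 14.1% of genes with 1 start, 20.9% with 2, 24.8% with 3 and 20.2% with 4 or more. Optimal summits had reached 20.5%, 36.6%, 47.8% and 61.1% of these genes. Of those they had not reached, 17.8%, 33.0%, 47.5% and 52.0% were gained. Several members stood at 233 gained genes. Xrp1, a stress-response transcription factor, loco, a regulator of G-protein signalling, and the potassium channel gene Irk1 had 4 each.

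The strongest gained genes had varied roles. The entry at Rpn11, the deubiquitinase of the proteasome lid, had a signal value of 44.6 in replicate 3, at rank 6131, and 43.4 in replicate 4, at rank 3455. It stood at moderate ranks in both replicates. The entry at Ten-m, a teneurin of cell contacts, ranked 4305 on pooled reads with 74.9 in replicate 3 (rank 2847) and 13.9 in replicate 4 (rank 26650). It therefore rested mainly on replicate 3. An entry at rank 4348 stood beside Tip60, a histone acetyltransferase gene, and tyf, a gene of circadian translation, with 59.4 and 33.3 (ranks 4035 and 5339). The shared entry of smo, the Hedgehog signal transducer, and CG17078 had 63.3 and 25 (ranks 3663 and 8879). That of wda, a subunit of the SAGA complex, and Pex11c, a peroxisome gene, had 40.2 and 57.9 (ranks 7098 and 2182). These shared entries cannot be given to 1 of the genes of the pair.

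Other strong gained genes, up to rank 4370, included CG11811, Debcl (a Bcl-2 family member of cell death), kermit (a PDZ protein), Polr1E (a subunit of RNA polymerase I), ergic53 (a cargo receptor between endoplasmic reticulum and Golgi), CG11791, CG4293, CG7322 and Usp39 (a splicing factor), CG8950 and Mov10 (an RNA helicase), stas, Psc, RpL10, and CG31800 and mib2 (a ubiquitin ligase). Their signal values ran from 36.7 to 66.8 in replicate 3 and from 13.8, at Psc, to 47.5 in replicate 4. At the other end, the weakest gained genes were Acbp2 (an acyl-CoA binding protein, rank 28671), Or85a (an odorant receptor, 28577), Spn77Ba (a serpin, 27800), Rab32 (27764) and CG5618 (27054). At Acbp2 the replicate ranks were 24794 and 24875, with signal values of 17.0 and 14.5. At CG5618 they were 26894 and 21071, so these entries ranked beyond 20000 in every list.

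Genes of chromatin regulators were among those gained. Of 21 Polycomb group genes, 13 had an optimal summit and 4 were gained, a share near the 16.1% of all protein-coding genes. The median pooled rank of the 4 was 4484, against 7807 for all gained genes. It describes 4 entries, without a test. Psc, a core subunit of Polycomb repressive complex 1 (2R), had a pooled rank of 4365 with 59.0 in replicate 3 (rank 4070) and 13.8 in replicate 4 (rank 26918). The entry at phol, the gene of Pho's paralogue, ranked 4425 with 46.4 and 42.7 (ranks 5817 and 3560). The phol entry was thus of similar rank in both replicates and the Psc entry was not. Scm, whose product links Polycomb complexes, had 50.1 and 35.0 (ranks 5214 and 4939), with the summit 18 bp upstream of the start and TATCGATA in the window. Asx, a subunit of the deubiquitinase complex of the group, had 62.2 and 17.1 (ranks 3772 and 18483). With the rank held to 15000 in both replicates, 2 of the 4 were left.

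Of 18 Trithorax group genes, whose products oppose Polycomb repression, 9 had an optimal summit and 5 (27.8%) were gained. They were osa (a subunit of the Brahma remodelling complex), ash2, Utx (a histone H3 lysine 27 demethylase), ash1 (a histone methyltransferase) and trx. The osa entry had 54.5 and 42.0 (ranks 4600 and 3653) and carried TATCGATA in its window, with the summit 13 bp from the start. The ash2 entry had 15.1 and 36.3 (ranks 29119 and 4652), so it was near the bottom of the replicate 3 list. Utx had 40.6 and 22.7 (ranks 6997 and 10632) and ash1 34.8 and 33.9 (ranks 8700 and 5188). The trx entry, at pooled rank 8751, had 25.9 and 23.4 (ranks 13222 and 10087). The median rank of the 5 was 7118, close to 7807 for all gained genes. Within rank 15000 in both replicates 4 of the 5 were left.

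Hox genes are the classical targets of the Polycomb group. An optimal summit lay within 1000 bp of a start at 1 of the 8 (12.5%, against 26.1% of all protein-coding genes). The members gained 3 more (37.5%, against 16.1%), abd-A, Abd-B and Antp. At abd-A the pooled rank was 6881, with the replicate values given beside its sequence, and the summit lay 147 bp upstream of the start, 17204 bp from the nearest optimal summit. At Abd-B the pooled rank was 8747 with 31.2 and 21.4 (ranks 10165 and 12007), and GAGAG lay in the window. At Antp the rank was 10845 with 14.8 and 31.5 (ranks 29948 and 5899), and an optimal summit lay 1932 bp away. The abd-A and Abd-B entries lay within rank 15000 in both replicates and the Antp entry did not. The other 4 Hox genes had neither kind of entry near a start. Entries farther from the starts were not counted here.

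Among 85 developmental transcription factor genes, 13 (15.3%) had an optimal summit and 23 (27.1%) were gained, against 26.1% and 16.1% of all protein-coding genes. The 4 strongest were oc (orthodenticle, head patterning), cad, tin (tinman, heart and visceral muscle) and bi (optomotor-blind, a T-box factor). The oc entry had 52.0 and 41.0 (ranks 4939 and 3799), tin 57.8 and 30.8 (ranks 4205 and 6145), and bi 53.9 and 33.5 (ranks 4683 and 5315). All 3 summits lay upstream of the start, at 191, 219 and 114 bp. Entries at oc and bi held both GCCAT and GAGAG, that at cad held GCCAT alone of these, and that at tin held neither. Over all members neither word passed the test against the flank. The other 19 gained genes included en, hth, nub, esg, vg, sd, pnr, mid and toy. The median rank of the 23 was 8465, and 13 were left within rank 15000 in both replicates. Of 27 genes of secreted signals 6 (22.2%) were gained. Among them, bnl, a fibroblast growth factor, had 58.8 and 31.0 (ranks 4094 and 6068), pyr, another, had 56.7 and 24.8 (ranks 4341 and 9061), vn, a neuregulin, had 42.0 and 36.7 (ranks 6671 and 4569), and gbb, a bone morphogenetic protein, had 38.8 and 19.6 (ranks 7450 and 14207).

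Genes of splicing and of protein turnover come next. Of 34 core spliceosome genes, 10 had an optimal summit and 15 (44.1%, against 16.1% of all protein-coding genes) were gained, at a median rank of 6617, and 10 of the 15 were left within that limit. Their 4 strongest entries were at SmD2 (62.4 and 20.3, ranks 3750 and 13239), Prp40 (34.4 and 48.7, ranks 8852 and 2902), LSm1 (36.6 and 28.0, ranks 8071 and 7248) and Prp39 (47.8 and 31.5, ranks 5569 and 5903). Of 32 proteasome genes 12 had an optimal summit and 10 (31.2%) were gained. Besides Rpn11 these included Rpn1 (52.5 and 37.0, ranks 4878 and 4511), with motif 1 in the window, the catalytic subunit gene Prosbeta5 (57.7 and 19.1, ranks 4221 and 14946) and the ubiquitin receptor gene Rpn10 (54.0 and 25.6, ranks 4667 and 8533). Of 20 autophagy genes 9 had an optimal summit and 5 were gained, led by Atg3, Atg5, Atg12 and Atg16. Atg5 held AGATGGC in its window and Atg12 held TATCGATA.

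The lists of the translation machinery differed in how far the optimal list had reached them. Of 88 cytoplasmic ribosomal protein genes 70 (79.5%) had an optimal summit and 10 (11.4%) were gained, all between ranks 4366 and 7203, and 8 had neither. Genes with an optimal summit cannot be gained, so the 10 stand against the 8 with neither. Over all protein-coding genes 2247 were gained and 8056 had neither. The RpL10 entry had 63.4 and 26.7 (ranks 3657 and 7881) with its summit 7 bp from the start, and that of RpL9 67.7 and 22.0 (ranks 3319 and 11345) at 2 bp. The RpS28a entry, with 51.2 and 36.3, lay nearer to a start of Axn. Of 73 mitochondrial ribosomal protein genes 37 (50.7%) had an optimal summit and 19 (26.0%) were gained at a weaker median rank of 10618, led by mRpL17, mRpL50, mRpS14 and mRpL28. Of 52 translation factor genes 20 (38.5%) had an optimal summit and 14 (26.9%) were gained, led by eIF2gamma (70.4 and 22.2, ranks 3130 and 11102), eIF4E6, eIF2Bepsilon and eIF2beta. The entries of eIF2gamma, eIF4E6 and eIF2Bepsilon lay nearer to a start of another gene. Of 35 aminoacyl-tRNA synthetase genes 15 (42.9%) had an optimal summit and 6 (17.1%) were gained, of which 2 were left within that limit. At AlaRS the ranks were 29798 and 5243, and at TrpRS 4395 and 28663, so each rested on 1 replicate. ArgRS (10380 and 4893) and HisRS (10338 and 10652) were more even.

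Of 79 genes of oxidative phosphorylation 25 had an optimal summit and 21 (26.6%) were gained. The strongest was ATPsynbeta on chromosome 4, the catalytic subunit of ATP synthase, with 42.7 and 45.0 (ranks 6522 and 3271) at 482 bp upstream of the start, nearer to a start of CG11076. UQCR-11 and RFeSP of complex III had 56.0 and 30.4 (ranks 4420 and 6319) and 41.5 and 36.5 (ranks 6791 and 4612), and ND-B17.2 of complex I had 46.9 and 37.2 (ranks 5722 and 4464). Of 34 V-ATPase genes (the proton pump of endosomes and lysosomes) 7 (20.6%) were gained, led by VhaM9.7-c with 51.3 and 39.4 (ranks 5051 and 4059), ATP6AP2, VhaM9.7-a and VhaPPA1-1. Tim9a, Tim9b and Tim23 of mitochondrial import were gained at ranks 6049, 8597 and 9596. Of 23 Rab GTPase genes 5 were gained. Rab18 (43.4 and 43.2, ranks 6361 and 3486) and Rab2 (45.7 and 46.4, ranks 5939 and 3117) stood well above Rab19 and Rab32, but the Rab2 entry lay nearer to Mob4 and that of Rab23 (rank 5122) nearer to plx. With the nearest start alone 3 Rab genes were gained.

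In the nucleus, 9 of 29 Mediator genes (31.0%) were gained, led by MED25, MED1, MED10 and MED8, and 4 were left within rank 15000 in both replicates. Of 22 nuclear pore genes 6 (27.3%) were gained and all 6 were left within it, with Nup93-2 the strongest at 32.7 and 48.8 (ranks 9512 and 2895), before Nup214, Nup133 and Nup153. Of 35 cell cycle and replication genes 10 (28.6%) were gained. Cdc45, a subunit of the replicative helicase, had 55.9 and 18.3 (ranks 4441 and 16350), CycD 41.5 and 22.7 (ranks 6774 and 10667), Cdk2 46.5 and 20.6 (ranks 5790 and 12873), and Orc5, of the origin recognition complex, 44.8 and 13.0 (ranks 6108 and 29758). All 4 ranked better in replicate 3. Orc5 held motif 1 in its window. Of 33 chaperone genes 4 (12.1%) were gained, namely Hsp22, Hsp23, Hsc70-3 and CCT2. Hsp22 had 50.6 and 30.4 (ranks 5150 and 6288), and Hsc70-3 had 15.1 and 32.7 (ranks 29112 and 5536).

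Genes of differentiated tissues varied. Of 117 cuticle protein genes 1 had an optimal summit and 7 (5.98%) were gained, led by Cpr57A (32.3 and 48.6, ranks 9666 and 2908), Lcp9, Lcp65Ag3 and Cpr65Av. Of 179 chemosensory receptor genes 2 (1.12%) were gained, Gr97a and Or85a, and the Gr97a entry lay nearer to CG5521. Of 18 eggshell and yolk genes 0 had an entry of either kind near a start. Of 20 neuronal genes 3 were gained, a share near that of all protein-coding genes. They were Syt1 (37.9 and 16.5, ranks 7676 and 19747), Rbp9 and futsch, and 0 were left within rank 15000 in both replicates. Of 23 muscle genes, with a mean of 2.65 starts against 1.41 over all protein-coding genes, 6 (26.1%) were gained. They included Zasp52 (34.9 and 39.8, ranks 8671 and 3982), Tm2 (45.2 and 24.3, ranks 6036 and 9386), Mlc2 (34.3 and 27.5, ranks 8900 and 7500) and bt (35.5 and 21.3, ranks 8461 and 12025). The gained share over all protein-coding genes was 16.1%, and no test sets a list apart from it. A gene with an optimal summit cannot be gained, so lists with many such genes leave less room for gained ones. Lists also differed in mean starts per gene, from 1.09 (cuticle proteins) to 2.65 (muscle), against 1.41 over all protein-coding genes. The part of either in these shares was not tested.

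**Figure D5:**
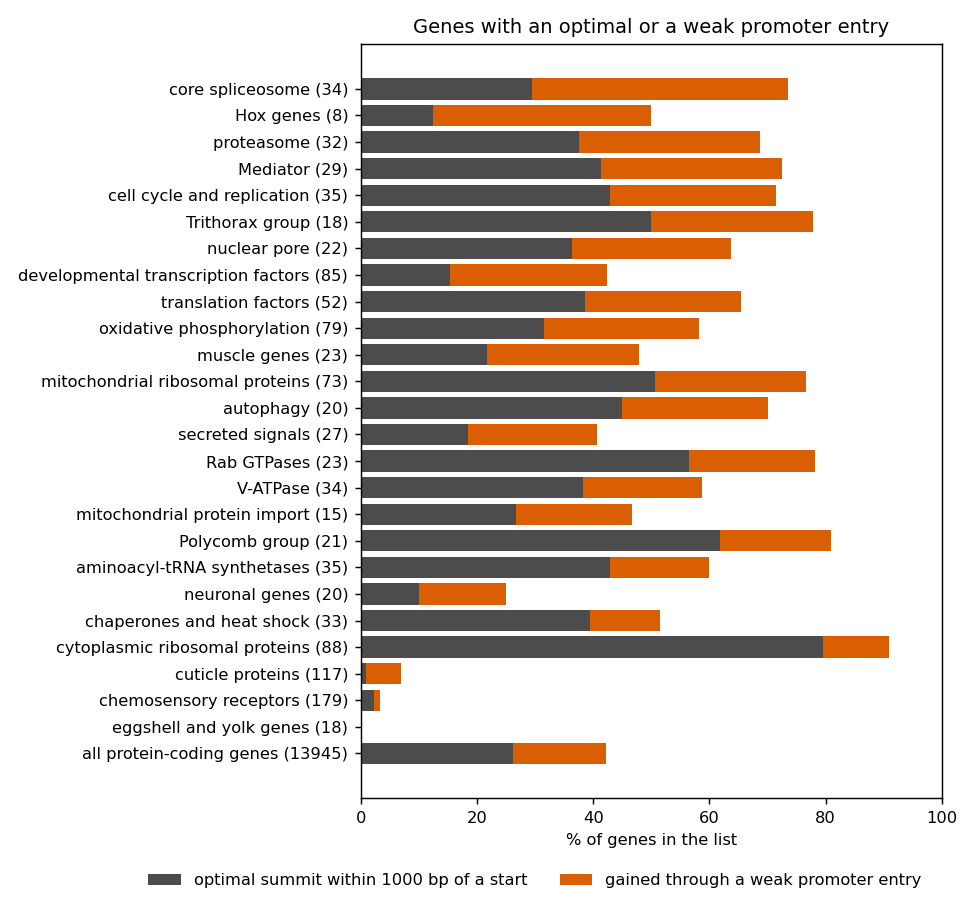
Percent of genes (x axis) reached by an optimal summit (dark grey, within 1000 bp) and, added to it, gained through a weak promoter entry (orange), for 25 gene lists (size in parentheses) sorted by the gained share, with all protein-coding genes at the bottom. The core spliceosome has the longest orange bar (44.1%), and cytoplasmic ribosomal proteins have the longest grey bar (79.5%).

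Along the chromosomes, the 5 large arms held 536 (2L) to 712 (3R) members each, and the small, largely heterochromatic chromosome 4 held 36. Chromosome 4 had 26 of its 80 protein-coding genes gained (32.5%), against 14.2% to 18.5% on the other arms, while 17 (21.2%) had an optimal summit, against 25.2% to 27.5%. These counts were singled out after they were seen and were not tested.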

How the data were processed

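Chromatin immunoprecipitation with an antibody against GFP was sequenced from 2 biological replicates of 1 group. Per the text files deposited with the lists, the authors called relaxed lists of peaks and background for each replicate and for the pooled reads against 1 control file, and took the optimal list from them with a cut-off for irreproducible discovery. Which aligner, caller and cut-off were used is not given in the sources used here. The signal value and the −log10 q-value of each entry are the authors' deposited values. Each dm6 list of the replicates and of the pooled reads held 30000 entries and the optimal list 4293. On each chromosome the largest entry end of the dm6 list lay within the length of the RefSeq sequence. Transcript starts (23581) and genes (13945 protein-coding) came from Ensembl release 115, without transposable element insertions.

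Ranks follow the signal value within a list. Motifs were searched on both strands with the tests named beside their results, which were tested on simulated data. Python 3.11.15 with pandas 2.3.3 and scipy 1.17.1 was used. Coordinates are 1-based. No read counts are in the files, so depth and its precision are unknown. The members, the 25 gene lists and the motifs were chosen with earlier results of these data known. Genes were named by rule: the 25 gained genes with the strongest entries, the 5 with the weakest, and up to 4 gained genes of each list by rank. A few of these are not reported here. Alternatives changed the distances, the annotation, the lists and the replicates used.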

Additional observations from a re-analysis of the deposited data

How the results depend on the processing

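The number of members was 3079. It fell to 2036 with a start within 200 bp and to 1584 with ranks within 15000 in both replicates, and it was 4473 to 5509 with a match asked in 1 replicate alone. Under the other distances and annotations tried it ranged from 2107 to 4301. The gained genes numbered 2247, fell to 1284 with ranks within 15000, and were 2988 to 3583 with 1 replicate left out. With the match within 50 bp they numbered 1576. The share of weak reproducible entries at promoters was 35.8%, and 30.8% to 32.5% with 1 replicate left out. The number of motifs that differed between weak and optimal promoter entries fell from 5 to 3 with a window of 25 bp. Of 350 counts of gained genes per list under the alternatives, 53 moved by more than 1.5 times. Of 121 motif tests under the alternatives, 6 lost and 4 gained a call, and no direction reversed where a call was made. The cause was not tested. Of the 117 genes named by rule, 94 stayed gained with a match within 50 bp, 88 with a start within 200 bp, 93 with ranks within 15000 and 91 with the nearest start alone. The dm3 lists held 8263 weak reproducible entries of any class, against 8597 on dm6, and gave no promoter share, since no dm3 annotation was used here. No paired analysis was possible because the series has 1 group.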

Other observations

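Of the 246 members at noncoding starts alone, the nearest start belonged to a gene annotated as ncRNA in 194. It belonged to a tRNA in 24, a small nucleolar RNA in 19, a small nuclear RNA in 5 and a pseudogene in 4. The median pooled rank of the 246 was 9581. Their median distance to the start was 224 bp, against 100 bp for members that gained a gene. The strongest, chosen by rank after the values were seen, lay at asRNA:CR45009 on X (rank 4311, ranks 5013 and 5187 in the replicates) and at asRNA:CR43469 on 2R (rank 4331). The entry at Uhg1, a host gene of small nucleolar RNAs, ranked 4423 on pooled reads and 7388 and 2661 in the replicates. The entry at lncRNA:CR42794 ranked 4417, 2800 and 24931.

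The 760 members at coding starts already reached included the strongest entries at CG5004 (rank 4296), Idua, a lysosomal iduronidase gene (4299), Cdk12 (4304), tapas, a Tudor domain gene of the germ line (4306), and Pgant35A, a glycosyltransferase gene (4307). The optimal summit lay 205 bp away at Idua, 208 bp at Cdk12 and 200 bp at Pgant35A, and 872 bp away at tapas. At CG5004 the nearest optimal summit was 4209 bp from the entry. Of the 760, 448 (58.9%) lay within 1000 bp of an optimal summit. Besides the genes with 4 members, 3 members each stood at vri, ttk, pnt, E2f1, E(Pc), par-1 and 10 other gained genes.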
